A study of Mus musculus with 11 samples.

Results

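The Hippo pathway coactivators YAP (gene Yap1) and TAZ (gene Wwtr1) were followed together with 8 genes known as their targets or regulators: Ccn1, Ccn2, Ankrd1, Amotl2, Ajuba, Lats2, Crim1 and Axl. These 10 genes were picked by name from the 43346 genes of the deposited table, all 10 were found there, and all 10 passed the filter on low values that left 15264 genes for testing. RNA came from liver cells of wildtype male C57BL/6 mice aged 14 to 16 weeks, caught with magnetic beads against the surface protein EpCAM over 2 columns and labelled as cholangiocytes, the cells that line bile ducts. The Control group (4 libraries) ate chow, the DDC group (4 libraries) ate the DDC diet for 10 days, and the R15 group (3 libraries) ate the DDC diet for 10 days and then chow for 15 days. The DDC diet blocks heme synthesis and causes cholestatic injury of the bile ducts in mice. No group carried a transgene or deletion. The labels number the libraries of a group as replicates without saying what separates them, so p-values measure the spread between these libraries.

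YAP and TAZ shuttle between cytoplasm and nucleus. The Hippo kinases MST1 and MST2 activate LATS1 and LATS2, which phosphorylate YAP and TAZ, hold them in the cytoplasm and lead to their breakdown. In the nucleus they bind TEAD transcription factors and switch on genes such as Ccn1, Ccn2 and Ankrd1, and some of those targets, Amotl2 and Lats2 among them, restrain YAP in turn. In the liver YAP is most active in bile duct cells and is known for its part in the ductular reaction to cholestatic injury. Transcript levels measured here do not show where the proteins are or whether they are phosphorylated.

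The recovered reads came to between 49339240 and 72929107 per library, and the 10 genes rested on 915 to 29322 reads each per library. Cholangiocyte markers were abundant, the 10 genes of their list summing to between 8119 and 11217 FPKM (reads scaled to the gene's length and the library's size). Other cells also left transcripts. Summed hepatocyte markers (10 genes) were the highest of them, from 2984 to 3698 FPKM in Control, 1144 to 1666 in DDC and 1872 to 2552 in R15. Summed macrophage markers (12 genes) ran from 135 to 161 FPKM in Control, 1402 to 2536 in DDC and 147 to 794 in R15. Summed endothelial markers (12 genes) ran from 101 to 434, 31.9 to 68.6 and 68.6 to 217 FPKM. Summed stellate cell and fibroblast markers (12 genes) ran from 31.6 to 61.3 FPKM in Control, 420 to 507 in DDC and 163 to 223 in R15. Most of this sum was the single gene Rgs5, whose levels are given below with Ccn5. Of these 12 markers, 8, among them Col1a1, Pdgfrb and Lrat, stayed below FPKM 1 in every library. Control 1 held the most pancreatic acinar reads (1.19% of its reads) and Control 3 the most gastric mucous reads (1.02%), and results that change without these 2 libraries are marked as such.

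The bases just upstream of the members' start sites are shown because TEAD factors bind DNA directly at targets of YAP and TAZ. RefSeq sequences (GRCm38.p6) of the 250 bases before the start were found for 9 of the 10 genes, all but Ccn2. The TEAD letters CATTCC, or GGAATG on the other strand, occurred in 8 of these 9 genes, Lats2 being the one without them, and in 12.6% of the 32851 upstream windows of all genes. The members were picked as known YAP and TAZ genes, so this count describes them and tests nothing. The sites are printed 5′ to 3′ on the gene's strand with 10 bases on either side and the TEAD letters in capitals. The last number in brackets is the distance of the first capital from the RefSeq start site in bases.
Yap1 (chr9:8004722-8004747, minus strand, 141): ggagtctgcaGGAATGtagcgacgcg
Wwtr1 (chr3:57576031-57576056, minus strand, 136): taaactcaaaGGAATGcagataggcg
Ccn1 (chr3:145650073-145650098, minus strand, 103): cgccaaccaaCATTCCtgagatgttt
Ankrd1 (chr19:36120039-36120064, minus strand, 210): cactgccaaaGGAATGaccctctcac
Ankrd1 (chr19:36119952-36119977, minus strand, 123): cactaagtctGGAATGaaaattcacc
Amotl2 (chr9:102717729-102717754, plus strand, 65): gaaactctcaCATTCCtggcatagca
Ajuba (chr14:54577832-54577857, minus strand, 186): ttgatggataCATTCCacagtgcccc
Ajuba (chr14:54577810-54577835, minus strand, 164): cccctccgcgCATTCCaactgtaaac
Crim1 (chr17:78200159-78200184, plus strand, 79): ggcgggggggGGAATGaggtaggatg
Axl (chr7:25788951-25788976, minus strand, 233): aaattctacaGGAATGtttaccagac

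Ankrd1 and Ajuba each held 2 matches, and the other 6 genes held 1 per window. The AP-1 letters TGANTCA were found in none of the 9 genes and in 6.75% of all windows. The CCAAT letters bound by NF-Y, the factor that the series title names, or ATTGG on the other strand, were found in Ankrd1, Ajuba and Crim1 and in 33.8% of all windows. The whole upstream windows of Ccn1 (chr3:145649986-145650235, minus strand) and Axl (chr7:25788734-25788983, minus strand) are shown because Axl had the largest change of the members and Ccn1 was the member still higher in R15.
Ccn1: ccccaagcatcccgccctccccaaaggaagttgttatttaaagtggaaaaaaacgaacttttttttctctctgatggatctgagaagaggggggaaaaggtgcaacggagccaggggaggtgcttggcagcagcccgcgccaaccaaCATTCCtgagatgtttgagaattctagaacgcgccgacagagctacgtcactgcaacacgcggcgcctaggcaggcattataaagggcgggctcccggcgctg
Axl: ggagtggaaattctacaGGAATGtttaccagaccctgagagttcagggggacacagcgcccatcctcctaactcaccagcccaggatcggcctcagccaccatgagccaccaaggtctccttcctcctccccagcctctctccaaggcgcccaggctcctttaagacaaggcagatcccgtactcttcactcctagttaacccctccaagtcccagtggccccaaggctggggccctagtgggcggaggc

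Against Control, the DDC libraries show these genes at the end of the diet. Both coactivator genes and the regulators Amotl2 and Lats2 fell, as did Crim1, while Ccn1, Ankrd1 and Axl rose. The members therefore moved in both directions, 3 higher and 5 lower of 10 (limma, adjusted p under 0.05), where 65.4% of all tested genes were called in this comparison, 33.5% higher and 31.9% lower. The median log2 fold change was -0.27 over the members and 0.0029 over all tested genes, and the median absolute change was 0.59 against 0.31. The library values of the 2 groups did not overlap for 2 members that were higher and 5 that were lower, against 61.3% of all tested genes (31.5% higher, 29.8% lower). All 10 members had the same direction in this comparison under each of 27 alternatives, the other scalings included. Some of these, such as other call rules, other filters or leaving out an R15 library, cannot change this log2 fold change.

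Yap1 (ENSMUSG00000053110, mm10 chromosome 9, 7931999 to 8004596, minus strand, protein-coding) stood at 15.0, 16.0, 13.5 and 14.3 FPKM in Control 1 to 4, at 12.0, 11.7, 11.6 and 10.6 in DDC 1 to 4, and at 14.9, 15.0 and 14.8 in R15 1 to 3. Every DDC library lay below every other library, and the R15 values fell inside the Control range. In DDC against Control the log2 fold change was -0.33 ± 0.05 (SE; limma adjusted p = 0.00031), a ratio of mean levels of 0.779. In R15 against DDC it was 0.35 ± 0.06 (adjusted p = 0.00045), and in R15 against Control 0.02 ± 0.06 with a 95% interval from -0.11 to 0.15 (adjusted p = 0.84).

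Wwtr1 (ENSMUSG00000027803, chromosome 3, 57455649 to 57575910, minus strand), the TAZ gene, stood at 21.5, 26.1, 23.4 and 27.3 FPKM in Control, 20.7, 20.6, 20.5 and 18.5 in DDC and 28.9, 24.9 and 25.5 in R15. The DDC libraries again lay below all others, though DDC 1 came within 1 FPKM of Control 1. Its log2 fold change was -0.28 ± 0.08 in DDC against Control (limma adjusted p = 0.0099) and 0.38 ± 0.08 in R15 against DDC (adjusted p = 0.0028). R15 did not pass against Control, at 0.10 ± 0.08 (95% interval from -0.08 to 0.29). The level of Wwtr1 over that of Yap1 was 1.68 ± 0.20 (SD, n = 4) in Control, 1.75 ± 0.02 (SD, n = 4) in DDC and 1.77 ± 0.15 (SD, n = 3) in R15, so the difference between these groups was smaller than the spread within Control.

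**Figure D1:**
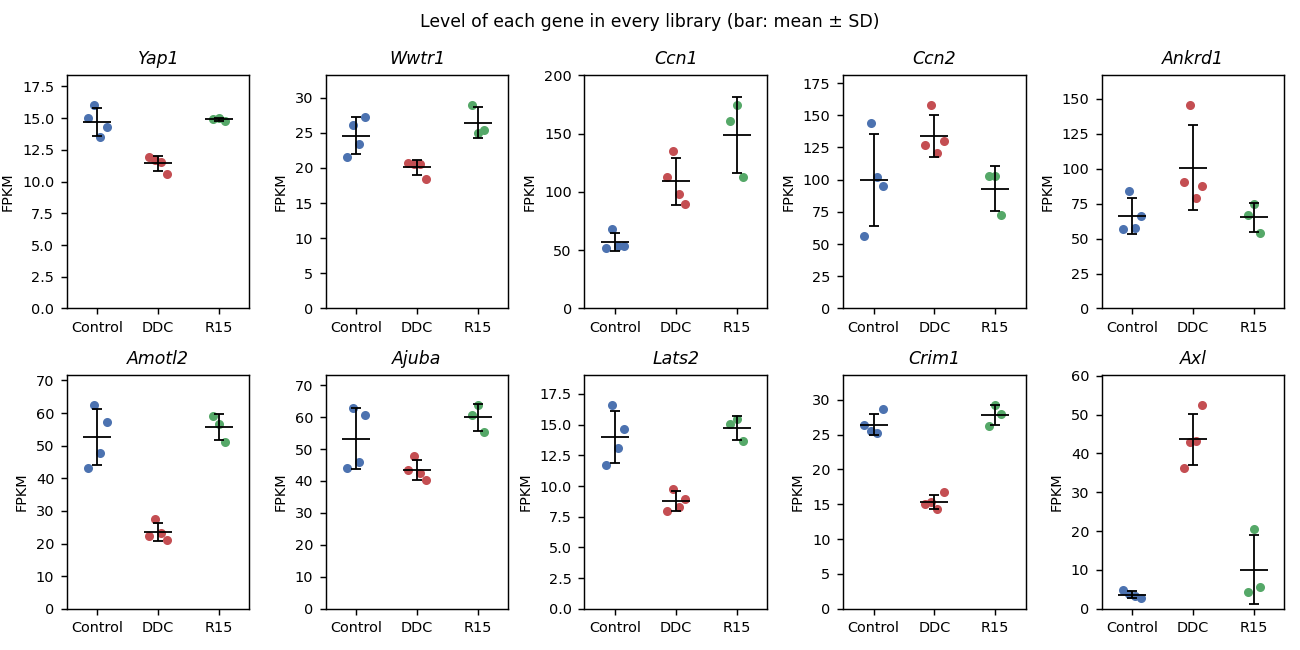
FPKM of each of the 10 genes (one panel each, axes from 0) in every library of Control, DDC and R15, with the mean ± SD as a bar. Yap1, Amotl2, Lats2 and Crim1 were lowest in DDC, Axl was highest in DDC, and Ccn1 was above Control in both DDC and R15.

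Ccn1 and Ccn2 encode secreted matricellular proteins (CYR61 and CTGF), the readouts most often used for YAP activity. Ccn1 (ENSMUSG00000028195, chromosome 3, 145646971 to 145649985, minus strand) stood at 52.2, 68.6, 53.6 and 53.2 FPKM in Control, at 113, 135, 97.9 and 89.7 in DDC and at 161, 174 and 112 in R15. Every DDC and every R15 library lay above every Control library. The log2 fold change was 0.92 ± 0.16 in DDC against Control (limma adjusted p = 0.00065), a ratio of means of 1.92, and 1.36 ± 0.18 in R15 against Control (adjusted p = 0.0021), a ratio of 2.62. Ccn1 was the only member called in R15 against Control, where 9.58% of all tested genes were called. Of these genes 6.87% were higher and 2.72% lower. Ccn1 kept that call under all 27 alternatives, with log2 fold changes from 1.21 to 1.55 and adjusted p from 0.0016 to 0.029. It was also the only member whose R15 and Control libraries did not overlap, against 21.3% of all tested genes (15% higher, 6.3% lower).

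R15 against DDC put Ccn1 at 0.44 ± 0.18 on the log2 scale (95% interval from 0.05 to 0.84), with a limma adjusted p of 0.050 that lay just above the threshold, and R15 3 lay inside the DDC range. It passed in 9 of 27 alternatives, among them without R15 3 (0.63, adjusted p = 0.0094), DDC 2 (0.55, adjusted p = 0.021) or Control 2 (0.44, adjusted p = 0.043). Its upstream window, printed above, holds 1 TEAD match. Genes of the immediate early list, which respond within minutes to growth factors and to tissue dissociation, also moved. Of its 21 genes, 15 were higher and 0 lower in DDC, where 33.5% and 31.9% of all tested genes were. In R15 against Control 4 were higher and 0 lower, where 6.87% and 2.72% of all tested genes were. In R15 against DDC 1 was higher and 9 lower, where 33.4% and 28.8% of all tested genes were. The R15 against Control count was 9 without Control 4 and 1 without Control 1, Control 3, R15 1 or R15 2, and 2 without Control 2, DDC 2 or DDC 3. Nr4a1, a nuclear receptor gene, had a mean of 8.45 ± 2.01 FPKM (SD, n = 4) in Control against 68.9 ± 5.06 (SD, n = 4) in DDC (2.91 ± 0.25 on the log2 scale), and Fosl1 and Egr3 rose in DDC by 1.69 and 1.55. The list summed to 570 to 1515 FPKM in Control, 1507 to 1803 in DDC and 1154 to 1944 in R15. Control 4, at 1515, lay within the DDC range of that sum and had a Ccn1 level of 53.2 FPKM, close to Control 1 and Control 3. The likeness in the sum did not hold gene by gene. In Control 4 Nr4a1 was at 9.94 FPKM (63.0 to 74.9 in DDC) and Fosl1 at 0.139 (2.14 to 3.03 in DDC). Fos, at 227 FPKM in Control 4, lay within its DDC range of 155 to 233. The part of the immediate early genes in the Ccn1 result was not tested further.

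Ccn2 (ENSMUSG00000019997, chromosome 10, 24595442 to 24598683, plus strand) stood at 56.6, 144, 102 and 95.04 FPKM in Control, 127, 158, 120.5 and 130.3 in DDC and 103, 103 and 72.7 in R15. Control spread widely, with Control 2 above 3 of the 4 DDC libraries. Ccn2 did not pass in any comparison: it was at 0.49 ± 0.24 in DDC against Control (95% interval from -0.04 to 1.03; limma adjusted p = 0.097), -0.04 ± 0.26 in R15 against Control (from -0.62 to 0.54) and -0.53 ± 0.26 in R15 against DDC (adjusted p = 0.099). DDC against Control rested on single Control libraries: it passed without Control 2 (0.69, adjusted p = 0.017), and was at 0.25 without Control 1 (adjusted p = 0.23) and 0.19 without Control 1 and Control 3 (adjusted p = 0.44). In R15 against DDC the 2 groups did not overlap, and Ccn2 passed when only those groups entered the fit (adjusted p = 0.016) or without Control 1 (adjusted p = 0.023) or both Control 1 and Control 3 (adjusted p = 0.029). The gene model Gm15270 overlaps Ccn2 on the other strand.

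Ankrd1, which encodes a nuclear ankyrin repeat protein and is another standard YAP target, rose in DDC and fell back in R15. It (ENSMUSG00000024803, chromosome 19, 36111965 to 36119844, minus strand) stood at 56.7, 84.4, 57.7 and 66.4 FPKM in Control, 90.2, 146, 79.4 and 87.6 in DDC and 66.9, 74.9 and 54.1 in R15. DDC 2 was far above the rest, and Control 2 lay above DDC 3. The log2 fold change was 0.57 ± 0.20 in DDC against Control (limma adjusted p = 0.026) and -0.59 ± 0.21 in R15 against DDC (adjusted p = 0.034). The first call was lost without DDC 2 (0.38, adjusted p = 0.0505), Control 1 (0.50, adjusted p = 0.068) or Control 3 (0.51, adjusted p = 0.065) or both of these (0.38, adjusted p = 0.20), and with each library at 1 FPKM total (0.48, adjusted p = 0.058). The second was lost without DDC 2 (-0.40, adjusted p = 0.058), R15 1 (-0.61, adjusted p = 0.067) or R15 3 (-0.46, adjusted p = 0.13), and with that same scaling (-0.47, adjusted p = 0.084) or quantile normalization (-0.45, adjusted p = 0.092). R15 against Control was at -0.02 ± 0.21 (95% interval from -0.49 to 0.46).

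The 3 secreted or nuclear targets thus kept different proportions in the groups. Ccn1 over Ankrd1 was 0.801 to 0.928 in the Control libraries, 0.929 to 1.25 in DDC and 2.08 to 2.40 in R15. Ccn1 over Ccn2 was 0.477 to 0.922, 0.688 to 0.886 and 1.55 to 1.70. Both ratios were higher in each R15 library than in each of the other 8. Ccn2 over Ankrd1 did not separate the groups, at 1.48 ± 0.35 (SD, n = 4), 1.38 ± 0.20 (SD, n = 4) and 1.42 ± 0.11 (SD, n = 3). No test was run on these ratios.

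**Figure D2:**
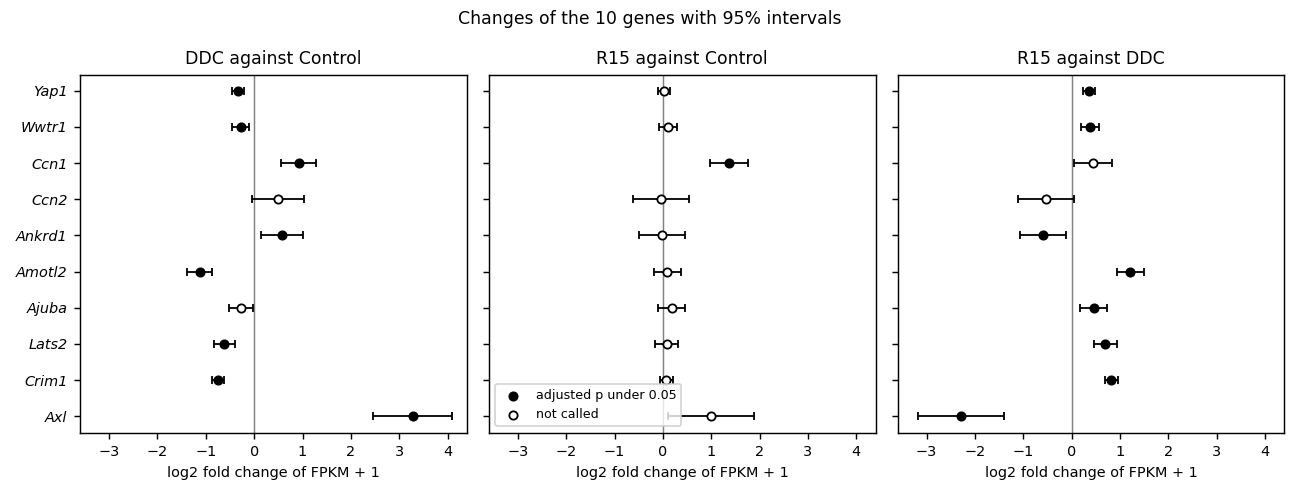
Log2 fold change of FPKM + 1 for the 10 genes in each of the 3 comparisons, with 95% intervals as bars. Filled points passed the limma adjusted p of 0.05 and open points did not. In R15 against Control only Ccn1 is filled, at 1.36.

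The regulators that act back on YAP fell in DDC. Amotl2, an angiomotin that binds YAP and holds it at junctions (ENSMUSG00000032531, chromosome 9, 102716672 to 102733418, plus strand), stood at 43.2, 62.4, 47.9 and 57.1 FPKM in Control, 22.2, 27.5, 23.1 and 21.2 in DDC and 59.0, 56.7 and 51.2 in R15. The DDC libraries stood apart from both other groups, whose values overlapped. Amotl2 fell by 1.12 on the log2 scale (SE 0.12, limma adjusted p = 1.8e-05), a ratio of means of 0.447, and rose by 1.21 ± 0.13 in R15 against DDC (adjusted p = 3.1e-05). R15 was at 0.09 ± 0.13 against Control, with a 95% interval from -0.19 to 0.37.

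Lats2, the kinase that inactivates YAP and TAZ (ENSMUSG00000021959, chromosome 14, 57642077 to 57758388, minus strand), stood at 11.7, 16.6, 13.1 and 14.6 FPKM in Control, 7.95, 9.78, 8.31 and 8.97 in DDC and 15.1, 15.5 and 13.7 in R15. No DDC library reached the lowest Control or R15 library. The log2 fold change was -0.61 ± 0.10 in DDC against Control (limma adjusted p = 0.00031) and 0.69 ± 0.11 in R15 against DDC (adjusted p = 0.00031). The table's Lats2 model overlaps Xpo4 on the same strand, so reads in the overlap cannot be assigned with certainty. Amotl2 over Lats2 was 3.75 ± 0.11 (SD, n = 4) in Control, 2.69 ± 0.22 (SD, n = 4) in DDC and 3.77 ± 0.13 (SD, n = 3) in R15, Amotl2 having the larger fall.

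Ajuba, a LIM domain protein that binds LATS kinases and restrains them (ENSMUSG00000022178, chromosome 14, 54567469 to 54577661, minus strand), stood at 43.9, 62.7, 46.0 and 60.5 FPKM in Control, 43.4, 47.9, 42.4 and 40.4 in DDC and 60.8, 63.7 and 55.3 in R15. Control split into a low pair (1 and 3) and a high pair (2 and 4), and DDC overlapped the low pair. DDC against Control did not pass, at -0.27 ± 0.12 (95% interval from -0.53 to -0.01; limma adjusted p = 0.060). It passed without Control 1 (-0.36, adjusted p = 0.016), Control 3 (-0.33, adjusted p = 0.032) or both (-0.49, adjusted p = 0.00066), and with 2 other scalings, median-of-ratios (-0.28) and 1 FPKM total per library (-0.36). Ajuba rose in R15 against DDC by 0.45 ± 0.12 (adjusted p = 0.0094), with no overlap between those groups.

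Crim1, a transmembrane protein that binds BMP ligands, fell in DDC and was back in the Control range or just above it in R15. It (ENSMUSG00000024074, chromosome 17, 78200248 to 78376592, plus strand) stood at 26.4, 25.5, 25.2 and 28.6 FPKM in Control, 15.1, 15.3, 14.3 and 16.7 in DDC and 26.3, 29.2 and 28.0 in R15. Its coefficient of variation was 5.87% in Control, 6.60% in DDC and 5.25% in R15. The log2 fold change was -0.75 ± 0.06 in DDC against Control (limma adjusted p = 2.4e-06) and 0.82 ± 0.06 in R15 against DDC (adjusted p = 4.9e-06). R15 was at 0.07 ± 0.06 against Control (95% interval from -0.07 to 0.21).

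Some markers of other cell types moved with the members that fell. Of all tested genes 31.9% were lower and 33.5% higher in DDC against Control, and 33.4% higher and 28.8% lower in R15 against DDC. Of the 12 endothelial markers 11 were lower and 0 higher in DDC against Control, and 10 were higher and 0 lower in R15 against DDC. Of the 4 tested B and plasma cell markers 3 were lower and 0 higher, then 3 higher and 0 lower. Of the 10 hepatocyte markers 5 were lower, among them Alb (albumin) and Fabp1, and 2 higher in DDC against Control. In R15 against DDC 5 were higher and 1 lower. The hepatocyte sum in every R15 library stayed below every Control library (1872 to 2552 against 2984 to 3698 FPKM). In bulk RNA, fewer cells of a type and less RNA per cell cannot be told apart. The endothelial list summed to 101, 137, 434 and 309 FPKM in Control, 64.4, 31.9, 48.0 and 68.6 in DDC and 68.6, 217 and 167 in R15. DDC 4 and R15 1 had the same sum, with Amotl2 at 21.2 and 59.0 FPKM. The part of these cells in the members' values was not tested.

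Axl, a receptor tyrosine kinase of the TAM family that responds to the ligand GAS6, had the largest change of the members. It (ENSMUSG00000002602, chromosome 7, 25757273 to 25788705, minus strand) stood at 4.73, 3.85, 3.21 and 2.71 FPKM in Control, 36.3, 42.9, 43.1 and 52.4 in DDC and 4.38, 20.5 and 5.49 in R15. All DDC libraries lay far above all others, and R15 2 lay between the groups. The log2 fold change was 3.28 ± 0.37 in DDC against Control (limma adjusted p = 3.0e-05), a ratio of means of 12.0, and -2.29 ± 0.40 in R15 against DDC (adjusted p = 0.00068). R15 against Control did not pass (0.99 ± 0.40, 95% interval from 0.11 to 1.88, adjusted p = 0.14), and the value was 0.37 without R15 2 (adjusted p = 0.24).

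Macrophages and dendritic cells express Axl, and the macrophage list moved with it. Of its 12 markers 10 were higher in DDC and 0 lower, where 33.5% and 31.9% of all tested genes were. In R15 against DDC 0 were higher and 8 lower, where 33.4% and 28.8% of all tested genes were. Library by library, the list summed to 144, 161, 137 and 135 FPKM in Control, 1402, 1700, 1603 and 2536 in DDC and 147, 794 and 177 in R15. The library with the highest sum in DDC, DDC 4, and the one in R15, R15 2, were also those with the highest Axl. The macrophage gene Adgre1 (F4/80) stood at 1.45, 13.5 and 1.75 FPKM in R15 1 to 3. The part of these cells in the Axl values was not tested.

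**Figure D3:**
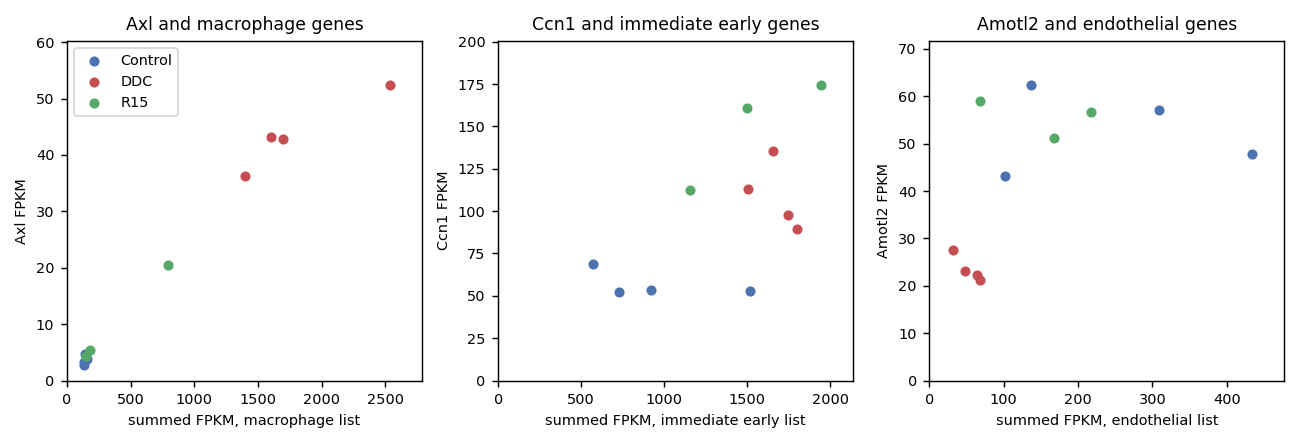
Level of Axl, Ccn1 and Amotl2 (FPKM, vertical axes) against the summed FPKM of the macrophage, immediate early and endothelial lists (horizontal axes), 1 point per library coloured by group. R15 2 has both a macrophage sum of 794 and an Axl level of 20.5, Control 4 has an immediate early sum of 1515 with a Ccn1 level of 53.2, and R15 1 has an endothelial sum of 68.6 with an Amotl2 level of 59.0.

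No other TAM gene passed as higher in DDC. Gas6, which encodes the AXL ligand, was abundant and fell from 1120.5 ± 75.2 FPKM in Control to 514 ± 24.0 in DDC (-1.12 ± 0.09 on the log2 scale, limma adjusted p = 3.5e-06), and stood at 1081 ± 134 in R15 (n = 3). Pros1, the gene of the ligand protein S, fell as well (-0.58 ± 0.10). The receptor genes did not pass in DDC against Control, Mertk at 5.84 ± 3.48 and 10.7 ± 3.09 FPKM (adjusted p = 0.083) and Tyro3 at 2.15 ± 0.24 and 2.19 ± 0.17. Mertk passed without Control 3 (1.16, adjusted p = 0.029) or R15 2 (0.89, adjusted p = 0.048).

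The order of levels changed with the groups. In Control the mean FPKM ran from Ccn2 (99.4) over Ankrd1, Ccn1, Ajuba and Amotl2 (66.3 to 52.6) to Crim1, Wwtr1, Yap1, Lats2 and Axl (26.4 to 3.62). Neighbours in that order overlapped in their library ranges except at 3 steps, Amotl2 to Crim1, Wwtr1 to Yap1 and Lats2 to Axl. In DDC Axl moved from last to the fourth place at 43.7 FPKM, next to Ajuba at 43.5. In R15 Ccn1 led at 149 FPKM, its lowest library above the highest of Ccn2.

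The TEAD genes, whose proteins bring YAP and TAZ to DNA, split as well. Tead1, the most abundant, fell from 25.0 ± 3.97 to 16.9 ± 1.42 FPKM in DDC (-0.53 ± 0.11 on the log2 scale, limma adjusted p = 0.0019) and stood at 30.0 ± 2.56 in R15. Tead3 (-0.24 ± 0.07) and Tead4 (-0.23 ± 0.07) fell too, while Tead2 rose from 9.01 ± 1.62 to 13.9 ± 1.11 FPKM (0.59 ± 0.11). Of the VGLL genes, whose proteins compete for TEAD, Vgll4 did not pass in DDC against Control (-0.03 ± 0.06), Vgll1 and Vgll2 were listed at 0 in every library and Vgll3 lay under the filter.

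Upstream kinases and scaffolds of the Hippo pathway went both ways in DDC, 13 lower and 4 higher of 22, where 31.9% of all tested genes were lower and 33.5% higher. The median log2 fold change of that list was -0.20, against 0.0029 over all tested genes. Wwc1, which encodes the scaffold KIBRA, fell from 153 ± 16.2 to 87.3 ± 3.72 FPKM (-0.80 ± 0.09) and Fat4, an atypical cadherin, from 2.22 ± 0.46 to 0.200 ± 0.066 FPKM (-1.41 ± 0.11). Taok3, a kinase that can activate the Hippo kinases, rose by 0.30 ± 0.03. In R15 against DDC 12 of the 22 were higher and 4 lower, where 33.4% and 28.8% of all tested genes were.

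The remaining genes of a YAP target list went both ways like the members. Of 16 genes 15 were tested, and 8 were higher and 4 lower in DDC, where 33.5% and 31.9% of all tested genes were. Asap1, a regulator of ARF GTPases (0.80 ± 0.08), and Myof, the membrane repair protein myoferlin, rose, Myof from 34.3 ± 4.21 to 58.7 ± 2.43 FPKM (0.76 ± 0.09). Rbms3, which encodes an RNA-binding protein, fell from 14.4 ± 1.76 to 5.28 ± 0.37 FPKM (-1.29 ± 0.09). In R15 against Control 4 were higher and 0 lower, where 6.87% of all tested genes were higher; the 4 became 1 without R15 2 or Control 1 and 2 without R15 1. The split over all genes was 1048 higher and 415 lower in that comparison, or 622 and 804 with median-of-ratios scaling.

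**Figure D4:**
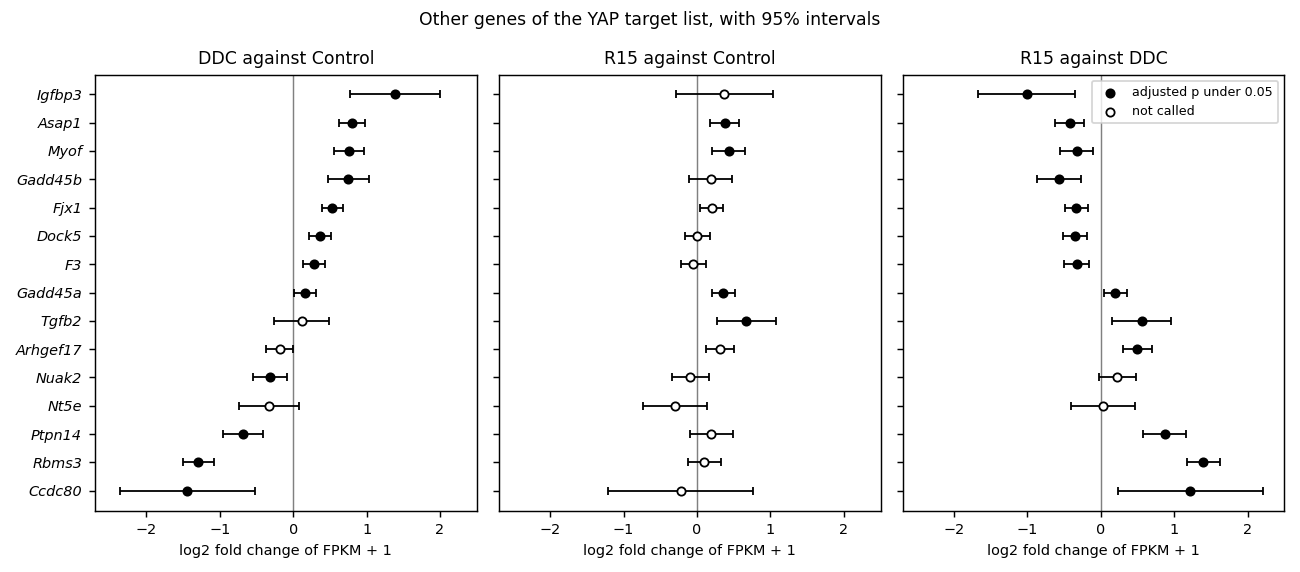
Log2 fold change of FPKM + 1 for the 15 tested genes of the YAP target list that are not among the 10 members, ordered by DDC against Control, with 95% intervals. Filled points passed the limma adjusted p of 0.05. In DDC against Control 8 filled points lie above 0 and 4 below.

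Among the other CCN genes only Ccn5 passed the filter. It stood at 0.14, 0.37, 0.26 and 0.26 FPKM in Control, 3.43, 5.96, 4.66 and 3.49 in DDC and 6.28, 6.52 and 5.36 in R15. Like Ccn1 it lay above every Control library in both other groups, at 2.08 ± 0.14 in DDC against Control (limma adjusted p = 1.2e-06) and 2.49 ± 0.15 in R15 against Control (adjusted p = 2.8e-05) on the log2 scale. Between DDC and R15 Ccn5 was at 0.41 ± 0.15 (adjusted p = 0.035), a call lost without DDC 1 (0.33), DDC 4 (0.33), R15 1 (0.39) or R15 2 (0.36), with adjusted p from 0.090 to 0.10. It was also lost without Control 1 and Control 3 together (0.41, limma adjusted p = 0.0505). Other settings lost it too, among them quantile normalization (0.39, adjusted p = 0.065), median-of-ratios scaling (0.36, adjusted p = 0.054) and array weights (0.30, adjusted p = 0.15). Stellate cells and fibroblasts can express CCN genes, and the 12 markers of their list went different ways. In DDC against Control 1 of its 3 tested genes was higher (Rgs5, from a mean of 37.5 to 452 FPKM), 1 was lower (Reln, from 1.40 to 0.433 FPKM) and Acta2 did not pass. Between DDC and R15 Rgs5 fell to 175 FPKM and Reln rose to 1.04 FPKM. The part of these cells in the Ccn5 values was not tested.

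In R15 against DDC, the comparison across the return to chow, 6 members were higher and 2 lower of 10, where 62.2% of all tested genes were called, 33.4% higher and 28.8% lower. The groups did not overlap for 6 members that were higher and 3 that were lower, against 66.6% of all tested genes (35.6% higher, 31% lower). Over all genes 5099 were higher and 4397 lower, or 6172 and 3305 with each library at 1 FPKM total, a scaling that moved the median of all genes by 0.10 on the log2 scale. The 6 higher members were Yap1, Wwtr1, Amotl2, Ajuba, Lats2 and Crim1, each also higher with that scaling. The DDC libraries enter both this comparison and the first one, so the members' values in the 2 comparisons are not independent. In R15 against Control 1 member was higher and 0 lower by limma, with 2 of 10 at an unadjusted p under 0.05, Ccn1 and Axl.

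The genes whose log2 values followed a member most closely over the 11 libraries were found by Pearson's r, which the differences between the groups dominate. Genes with clone names (Gm, Rik, AC or BC numbers) were left out of this search. For Yap1 they were Zfp664 (r = 0.980), Trp53bp2 (0.979) and Evc2 (0.978). For Wwtr1 they were Ift88 (0.982), Zbtb10 (0.980) and Ttc8 (0.975). For Ccn1 they were Arnt2 (0.964), Drc1 (0.957) and Bmt2 (0.955), and for Ankrd1 Pacc1 (0.902), Vangl1 (0.892) and the microRNA gene Mir7079 (0.882).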

How the data were processed

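Stranded mRNA preparations were sequenced, as the labels' protocols state. The values used are the FPKM the authors deposited, 11 columns of 1 table, and the submitters' processing notes name build mm10. For the aligner, the counter and its strand setting: not given in the sources used here. Whole reads were recovered for 100% of nonzero FPKM values (tolerance 0.001), taking the smallest value as 1 read and gene length plus 1, which no source states. They gave the depths and 1 alternative. Tests used log2(FPKM + 1), a scale that shrinks changes of weakly expressed genes, on the 15264 genes that reached FPKM 1 in 3 or more libraries. All 11 libraries entered 1 model of the 3 groups in limma 3.58.1 (R 4.3.3, trended empirical Bayes), 2-sided, with Benjamini-Hochberg adjustment over all genes tested and a threshold of 0.05. The fit was first tested on simulated data, with the same spread set for all genes. In each comparison 50 genes were changed by each fold and all other genes were left unchanged. The fit recovered 0% of 1.25-fold changes in each comparison. Of 1.5-fold changes it recovered 34% in DDC against Control, 16% in R15 against Control and 12% in R15 against DDC. For 2-fold changes these shares were 94%, 88% and 76%. In the data 65.4% of tested genes were called in DDC against Control, and Wwtr1 was called at a ratio of means of 0.817. The simulated shares, with few changed genes and 1 spread, therefore do not carry over to the data.

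The members, gene lists, tests and alternatives were chosen with earlier results of these data known. Named genes were the 10 members and the 3 genes with the smallest DDC against Control p of each pathway list. All TEAD, CCN and TAM genes and the 3 most similar genes of 4 members, clone names left out, were named too. Adgre1, Rgs5, Reln, Acta2, Alb, Fabp1, Jun, Fos and the pancreatic and gastric reads were added after their values were seen. Replicates of a group differed beyond sampling noise (median chi-square of a pair 2.12 to 10.6, against 0.455), so each library counts as 1. The coordinates in the table were those of GENCODE M21 for 33460 of its 43346 genes; strands are from M21. Alternatives were pseudocounts, filters, scalings, variance models, call rules, a replicate block, limma voom on recovered reads and each library left out. Of the 37 mitochondrial genes all are listed at 0.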

Additional observations from a re-analysis of the deposited data

Results flagged for a closer look

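In 98 groups of 4 libraries, 7 held a library whose gap to its nearest neighbour passed Dixon's critical value, where chance marks about 1 group in 20. Among the members, Ankrd1 was far higher in DDC 2 (146 FPKM) than in the other DDC libraries, Ccn1 was far higher in Control 2 (68.6 FPKM) than in the other Control libraries, and Wwtr1 was lower in DDC 4 (18.5 FPKM). The scaffold gene Wwc1 was low in DDC 3 (81.7 FPKM). Of the marker sums, the B and plasma cell list was high in DDC 4 (23.0 FPKM), the cholangiocyte list in Control 2 (11080 FPKM) and the mesothelial list in DDC 3 (86.9 FPKM). Control 2 was thus the highest Control library in Ccn1 and in the cholangiocyte sum.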

How the results depend on the processing

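With an absolute log2 change of at least 1 required, 1 member was higher and 1 lower in DDC against Control, and 1 higher and 1 lower in R15 against DDC. The lower count in R15 against DDC was also 1 at an adjusted p under 0.01, with quantile normalization, with 1 FPKM total per library and with no filter on low values, the member lost being Ankrd1. Leaving out 1 library at a time, the members higher and lower numbered 2 to 4 and 5 to 6 in DDC against Control, 6 to 7 and 1 to 3 in R15 against DDC and 1 and 0 in R15 against Control. Deviations of same-numbered libraries had correlations of -0.28 to 0.30, and those of libraries with different numbers -0.54 to 0.60. These correlations over all tested genes cannot decide whether the numbers pair libraries. With the replicate number as a block the counts were 3 higher and 6 lower, 7 and 2, and 1 and 0 in that order, Ajuba joining in the first (adjusted p = 0.042) and Ccn1 in the second (adjusted p = 0.013). Over all genes, R15 against Control ranged from 126 to 1464 higher and 15 to 804 lower over the alternatives (main 1048 and 415), 486 and 207 with the block. With an absolute log2 change of at least 1 the other comparisons had 1202 and 600, and 540 and 890.

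Values that changed sign were all of genes not called, and the cause was not tested. In R15 against Control these were, without Control 1 and Control 3 Ajuba (-0.042), Amotl2 (-0.10), Lats2 (-0.076), Rbms3 (-0.043), Tyro3 (0.0091), Wwtr1 (-0.017), Yap1 (-0.020). They were, with quantile normalization Ankrd1 (0.047), Ccn2 (0.042), Wwc1 (0.067), Yap1 (-0.0082), and with 1 FPKM total per library Ankrd1 (0.013), Wwc1 (0.020). They were also, with median-of-ratios scaling Yap1 (-0.043), Ywhaz (-0.024), with array weights Amotl2 (-0.0064), Gas6 (0.019), Wwc1 (0.027), and with the replicate block Wwc1 (0.0019), Yap1 (-0.0030). With 1 library left out at a time, values on both sides of 0 ran from -0.12 to 0.11 for Ankrd1, from -0.28 to 0.16 for Ccn2, from -0.12 to 0.050 for Gas6, from -0.11 to 0.00097 for Tead3, from -0.087 to 0.082 for Wwc1 and from -0.017 to 0.060 for Yap1. Tyro3 in DDC against Control ran from -0.029 to 0.063 with 1 library left out, and was at -0.078 with quantile normalization and -0.036 with 1 FPKM total per library, which gave 0.0030 in R15 against DDC. The members rested on at least 915 reads per library. Counting error was not compared with the spread of each gene, which was as low as a coefficient of variation of 0.875% for Yap1 in R15.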

Other observations

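Libraries of 1 group tended to rank alike over the members. Control 2 was the highest Control library for 7 of the 10 genes and Control 1 the lowest for 7. R15 2 was the highest R15 library for 7 and R15 3 the lowest for 7, while DDC 2 was the highest DDC library for 6. These counts describe the libraries, and the members are not independent of each other.

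Genes whose proteins retain YAP at junctions, bind it in the cytoplasm or lead to its breakdown went both ways in DDC against Control, 7 higher and 6 lower of 16, near the 33.5% higher and 31.9% lower of all tested genes. Ywhaz, a 14-3-3 protein gene, rose from 71.5 ± 3.38 to 86.0 ± 1.65 FPKM (0.26 ± 0.04 on the log2 scale). Amotl1, an angiomotin like Amotl2, fell from 27.4 ± 3.67 to 18.6 ± 1.62 FPKM (-0.53 ± 0.09). Crb3, a cell polarity gene, fell from 36.2 ± 1.16 to 27.5 ± 0.90 FPKM (-0.38 ± 0.04), and it was the 1 gene of the list lower in R15 against Control (-0.23 ± 0.05), a call lost without Control 1 and Control 3 together (-0.20, limma adjusted p = 0.090).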
